A study of Homo sapiens with 6 samples.

Results

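RNA levels of 10 genes of the YAP/TEAD system were followed in renal cell carcinoma cells with and without a hairpin against RNF25. The set holds the coactivators YAP1 and WWTR1, the DNA-binding factor TEAD1, the targets CCN1, CCN2 and ANKRD1, and AMOTL2, AJUBA, LATS2 and CRIM1, found by symbol among the 30267 genes of the deposited table. The set was selected on the rise of CCN2 that had been measured in these same libraries. The differences between the groups for these 10 genes are therefore given as a description, without a p-value.

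Total RNA of SW839, an established human renal cell carcinoma line, was sequenced in bulk from 3 shRNF25 and 3 shControl libraries, to ask what changes in expression when RNF25, a ubiquitin ligase, is lowered. The shRNF25 cells carried an RNA hairpin against RNF25 and the shControl cells the pLKO vector, and the study's methods describe lentiviral delivery with puromycin selection for such lines. The libraries name a single RNF25 hairpin series, which makes the effect of RNF25 loss and any other effect of that hairpin inseparable here, and the treatment text attached to every sample, controls included, speaks of the hairpin plasmid. The control libraries are named in 3 different ways and the shRNF25 libraries in 1, and a batch that ran along with them cannot be told apart from the hairpin.

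YAP (from YAP1) and TAZ (from WWTR1) are coactivators at the end of the Hippo pathway. When the MST and LATS kinases are active they phosphorylate YAP and TAZ, which are then held in the cytoplasm or degraded, and when the kinases are quiet YAP and TAZ enter the nucleus and bind TEAD factors, which recognize DNA. CCN1, CCN2 and ANKRD1 are the RNAs most often read as output of that complex, while AMOTL2 and LATS2 are targets whose products restrain YAP in return.

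Promoter sequences are shown for CCN2 and ANKRD1, which were picked by name, together with CCN1, as targets. Among members with a window, only these 2 genes had one with more than 1 copy of the TEAD motif. They moved in opposite directions in the same cells. No window was available for CCN1. The sequences are the 250 bases upstream of the RefSeq start (GRCh38.p14), on the strand of the gene, and the capitals mark the TEAD motif GGAATG.
CCN2, chr6:131951373-131951622, minus strand: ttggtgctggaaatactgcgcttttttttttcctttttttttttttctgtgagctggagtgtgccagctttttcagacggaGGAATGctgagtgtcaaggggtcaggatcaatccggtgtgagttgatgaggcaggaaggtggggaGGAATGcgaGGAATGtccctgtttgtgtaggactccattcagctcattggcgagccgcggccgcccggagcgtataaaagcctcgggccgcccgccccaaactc
ANKRD1, chr10:90921088-90921337, minus strand: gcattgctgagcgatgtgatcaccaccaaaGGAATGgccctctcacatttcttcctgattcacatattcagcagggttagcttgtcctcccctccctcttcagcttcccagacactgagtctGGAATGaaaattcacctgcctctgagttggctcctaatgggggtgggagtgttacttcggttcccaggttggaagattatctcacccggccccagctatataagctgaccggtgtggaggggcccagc

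In the CCN2 window the motif began at bases -169, -104 and -95, counted upstream from the start, and in the ANKRD1 window at -220 and -128. Windows of 300 bases, which run on past the start, were found for 7 of the 10 genes, with none for CCN1, TEAD1 and CRIM1. GGAATG or its reverse complement CATTCC stood in a window of 6 of these 7 genes, or in 6 of their 10 windows. Of the further target genes described later, 7 of 16 with a window held it, in 7 of 21 windows. YAP1 had a match at -162, AMOTL2 at -69 (as CATTCC), AJUBA at -59 and LATS2 at 10 bases past the start, and neither WWTR1 window had one. Among all 35116 windows 14.0% held the TEAD motif, 1.37% held 2 or more copies and 0.128% held 3 or more. The AP-1 motif TGANTCA was present at -195 in ANKRD1 (7.71% of all windows). An NF-κB motif was present in CCN2 at -95, where it shared 6 bases with the third TEAD match, and in AMOTL2 at -184 (9.08% of all windows), and the CArG box of SRF was in none of the member windows (1.29% of all windows). A match in a window is a description of the sequence, not a binding site shown in these cells.

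RNF25 itself stood at 588.1 ± 92.0 normalized counts in shControl and 241.6 ± 25.7 in shRNF25 (mean ± SD, n = 3 each; log2 difference -1.27, limma adjusted p = 0.000585). Normalized counts are reads per gene divided by a size factor of the library, and a log2 difference is shRNF25 minus shControl on the scale log2(normalized count + 1) with limma's standard error (SE). Libraries held 18647460 to 19943154 reads on genes. The shControl libraries varied more among themselves than the shRNF25 libraries, with a biological coefficient of variation of 20.6% against 5.01%. A gene was called when its adjusted p was below 0.05 and its fold change at least 1.5, which held for 8.65% of the 16554 tested genes in the higher and 7.10% in the lower direction. The samples are described as biological triplicates and the study speaks of independent experiments, but the labels tie no library to a culture of its own, and p-values measure the spread between these libraries only. The values are also those of bulk RNA, in which fewer cells that express a gene and less of its RNA per cell cannot be told apart.

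Of the 10 genes, all of which passed the filter on low values, CCN2 and WWTR1 met the call criteria in the higher direction, CCN1 in the lower direction and 7 in neither. The median log2 difference was -0.12, beside -0.01 over all tested genes. By adjusted p alone 2 were higher and 3 lower (10.5% and 10.8% of all genes), and the groups did not overlap for 3 genes that were higher and 4 that were lower in shRNF25 (20.7% and 21.8% of all genes). These counts use the contrast on which the set was selected, and nothing is read from them.

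**Figure D1:**
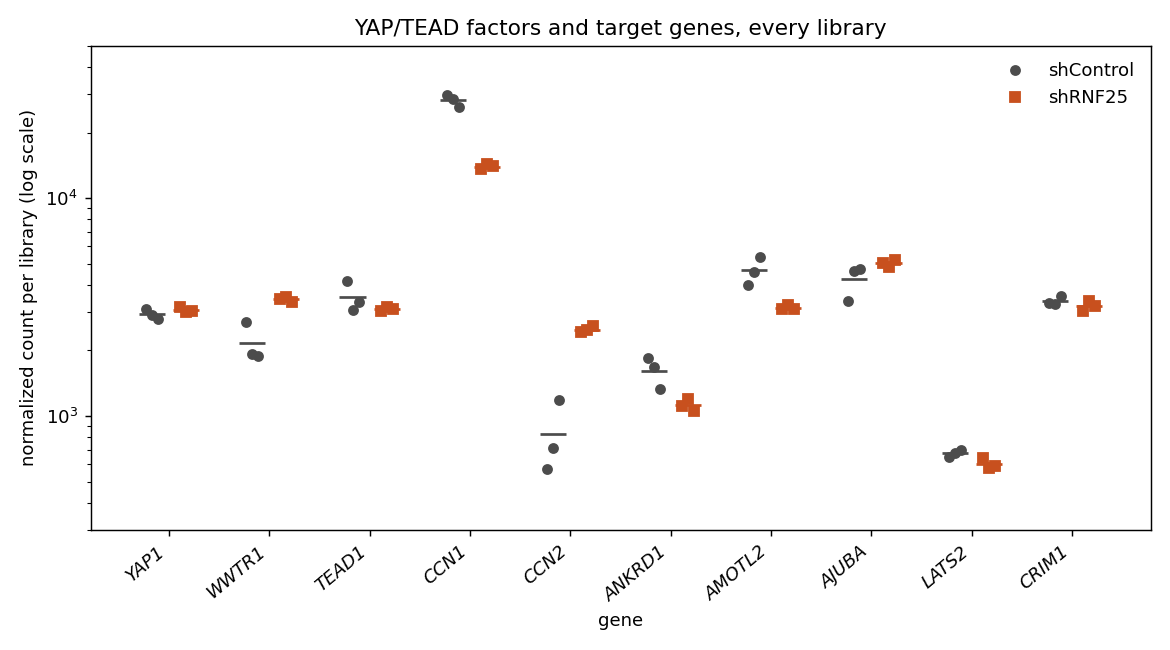
Normalized count (log axis) of each of the 10 genes in the 3 shControl (grey circles) and 3 shRNF25 libraries (orange squares), with a line at each group mean. CCN2 lies between 572.6 and 1185 in shControl and between 2425 and 2580 in shRNF25, whereas CCN1 lies between 26219 and 29665 in shControl and between 13614 and 14279 in shRNF25.

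The coactivators differed from each other. YAP1 (chr11:102110461-102233423, GRCh38, plus strand) had normalized counts of 3113, 2921 and 2801 in shControl replicates 1 to 3 and 3151, 2997 and 3041 in shRNF25 replicates 1 to 3. The groups overlapped, and the log2 difference was 0.06 (SE 0.097). WWTR1 (chr3:149517235-149736714, minus strand) had 2698, 1930 and 1886 in shControl and 3429, 3527 and 3336 in shRNF25. Every shRNF25 library was above every shControl library, and shControl replicate 1 was the nearest to them. The shRNF25 mean was 1.58 times the shControl mean (log2 difference 0.68, SE 0.144). WWTR1 met the call criteria with all libraries and lost the call without shRNF25 replicate 1 (log2 difference 0.68) or without shRNF25 replicate 2 (0.66). Its antisense gene WWTR1-AS1 had 5, 8 and 12 reads in shControl and 21, 19 and 24 in shRNF25, against 1747 to 3819 reads on WWTR1. The kit is stranded by the study's methods, but whether reads were counted by strand is not given in the sources used here.

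Levels of different genes were compared per kilobase of merged exons. The ratio of WWTR1 to YAP1 on that scale was 0.649, 0.494 and 0.504 in shControl and 0.814, 0.881 and 0.821 in shRNF25. WWTR1 RNA thus stayed below YAP1 RNA in all 6 libraries and came closer to it in each shRNF25 library. With the longest transcript as the length instead, the shRNF25 mean of WWTR1 was above that of YAP1 (682.0 against 567.4 normalized counts per kilobase), so that the order of this pair rests on the length used, while the shift between the groups does not.

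TEAD1 (chr11:12674591-12944483, plus strand) had normalized counts of 4150, 3080 and 3349 in shControl and 3031, 3157 and 3086 in shRNF25. The groups overlapped, shControl replicate 1 stood above the other 5 libraries, and the log2 difference was -0.18 (SE 0.125). The remaining TEAD genes, which are not members of the set, encode factors that bind the same motif. TEAD2 was lower in every shRNF25 library, at 1786 ± 13.4 normalized counts in shControl and 1255 ± 29.7 in shRNF25 (log2 difference -0.51, limma adjusted p = 0.00564), short of a fold change of 1.5. TEAD3 was also lower in every shRNF25 library, by -0.15 on the log2 scale (limma adjusted p = 0.300). TEAD4 differed by 0.08 (limma adjusted p = 0.661), with overlapping groups. Summed per kilobase, the 4 TEAD RNAs stood at 1568 ± 57.5 in shControl and 1324 ± 22.3 in shRNF25. TEAD2 made up 38.2% ± 1.13 of that sum in shControl and 31.8% ± 0.889 in shRNF25, whereas TEAD1 made up 21.8% ± 2.61 and 22.7% ± 0.115.

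**Figure D2:**
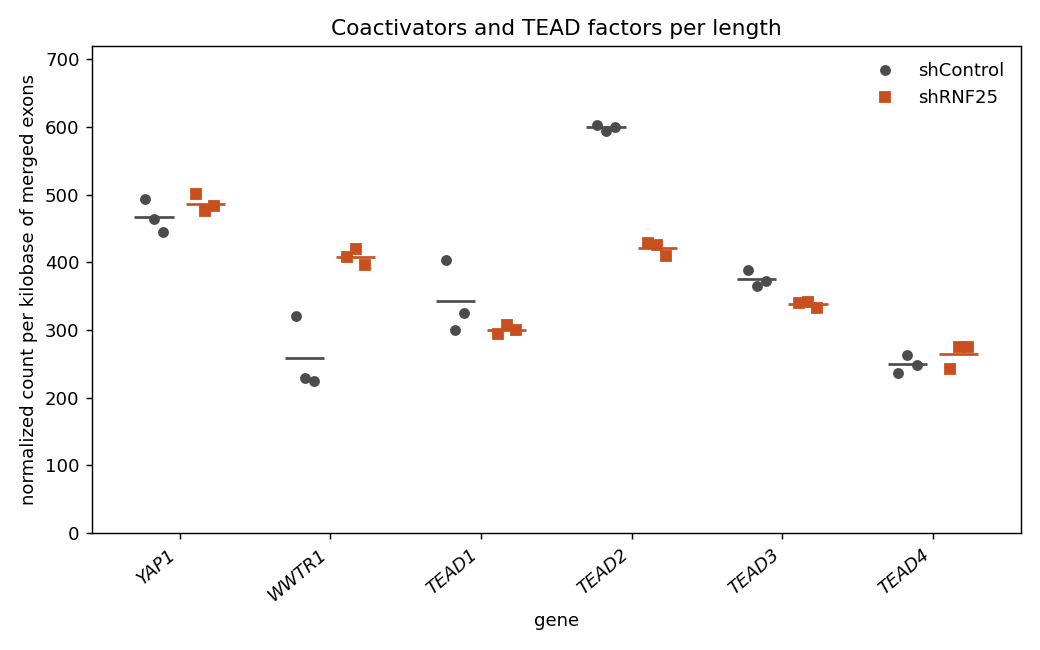
Normalized count per kilobase of merged exons for the coactivators and the 4 TEAD genes in each library, with shControl as grey circles, shRNF25 as orange squares and a line at each group mean. WWTR1 is higher and TEAD2 and TEAD3 lower in every shRNF25 library, and the groups overlap for YAP1, TEAD1 and TEAD4.

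The related targets CCN1 and CCN2 encode related secreted matrix proteins of the CCN family and moved in opposite directions. CCN2 (chr6:131948176-131951373, minus strand, annotated under its older symbol CTGF) had normalized counts of 572.6, 713.1 and 1185 in shControl and 2425, 2474 and 2580 in shRNF25. The groups were far apart, and shControl replicate 3 lay nearest to shRNF25. CCN2 averaged 3.03 times its shControl level (log2 difference 1.67, SE 0.226), from 518 to 2707 reads per library. Leaving out any single library gave log2 differences from 1.44 to 1.96, the latter without shControl replicate 3. The coefficient of variation was 39.0% in shControl and 3.19% in shRNF25, the former being the highest of the 10 genes. The antisense gene that overlaps CCN2, AL133346.1, had 0 or 1 reads in each library.

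CCN1 (chr1:85580761-85583962, plus strand, older symbol CYR61) had normalized counts of 29665, 28521 and 26219 in shControl and 13614, 14279 and 13981 in shRNF25. No shRNF25 library reached the level of any shControl library, and the spread within each group was small beside the gap. The shRNF25 mean was 49.6% of the shControl mean (log2 difference -1.01, SE 0.104). Under quantile normalization the log2 difference was -0.69, still past the call criteria. Per kilobase, CCN1 RNA exceeded CCN2 RNA 49.4, 38.1 and 21.1 times in shControl and 5.35, 5.50 and 5.16 times in shRNF25. CCN1 therefore remained the more abundant of the pair in all 6 libraries, with a much narrower margin in shRNF25.

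**Figure D3:**
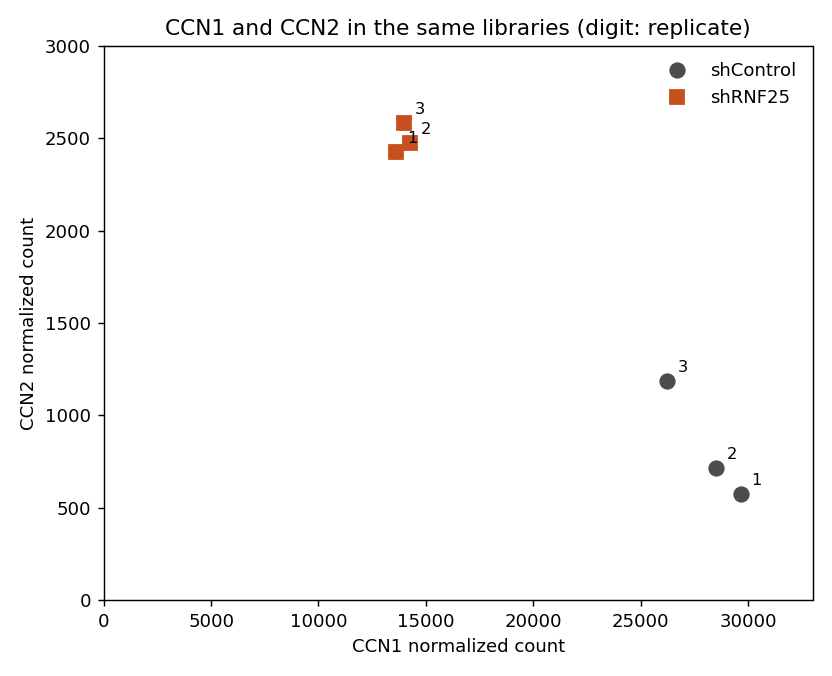
CCN2 against CCN1 normalized count in the same libraries (both axes linear from 0), with shControl as grey circles, shRNF25 as orange squares and the replicate number beside each point. The 3 shRNF25 libraries lie together at high CCN2 and low CCN1, and the shControl libraries spread along CCN2 from 572.6 to 1185.

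ANKRD1 (chr10:90912096-90921276, minus strand), which encodes an ankyrin repeat protein of the nucleus and the sarcomere, had normalized counts of 1844, 1675 and 1324 in shControl and 1115, 1194 and 1055 in shRNF25. The groups did not overlap, and shControl replicate 3 was nearest to the shRNF25 libraries. The log2 difference was -0.51 (SE 0.137), short of a fold change of 1.5, and -0.65 without shControl replicate 3, where the call criteria were met. The sign of the ANKRD1 difference was thus that of CCN1 and not of CCN2. The windows of ANKRD1 and CCN2 both held repeated TEAD motifs, and the part of these motifs in the differences was not tested.

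AMOTL2 (chr3:134355874-134375479, minus strand) encodes an angiomotin-like protein that binds YAP and holds it outside the nucleus. Its normalized counts were 3995, 4591 and 5396 in shControl and 3096, 3230 and 3088 in shRNF25. It was lower in every shRNF25 library, with a log2 difference of -0.56 (SE 0.124), and met the call criteria only without shControl replicate 1 (-0.67). LATS2 (chr13:20973032-21061547, minus strand), a kinase that phosphorylates YAP and TAZ, had 650.0, 677.2 and 697.2 in shControl and 637.8, 577.2 and 587.2 in shRNF25. The groups came close without overlapping, and the log2 difference was -0.17 (SE 0.108).

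AJUBA (chr14:22971174-22982642, minus strand) encodes a LIM protein that binds LATS kinases. It had normalized counts of 3388, 4626 and 4732 in shControl and 5017, 4851 and 5191 in shRNF25. Every shRNF25 library was above every shControl library, with shControl replicate 1 well below the rest, and the log2 difference was 0.26 (SE 0.138). CRIM1 (chr2:36355926-36551135, plus strand), a membrane protein with cysteine-rich repeats, had 3316, 3251 and 3547 in shControl and 3036, 3359 and 3207 in shRNF25. The groups overlapped, and the log2 difference was -0.08 (SE 0.0986), or 0.07 under quantile normalization. CRIM1 overlaps FEZ2 on the opposite strand, which had 784 to 1304 reads.

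Within shRNF25 the 10 genes varied little between libraries, with coefficients of variation from 2.04% (TEAD1) to 6.21% (ANKRD1), and within shControl from 3.51% (LATS2) to 39.0% (CCN2). Per kilobase of merged exons CCN1 ranked first and LATS2 last in both groups. CCN2 ranked 7 in shControl, where its range overlapped those of YAP1 above and TEAD1 below it, and 2 in shRNF25, apart from both neighbours. By the longest transcript it ranked 9 in shControl and 3 in shRNF25.

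**Figure D4:**
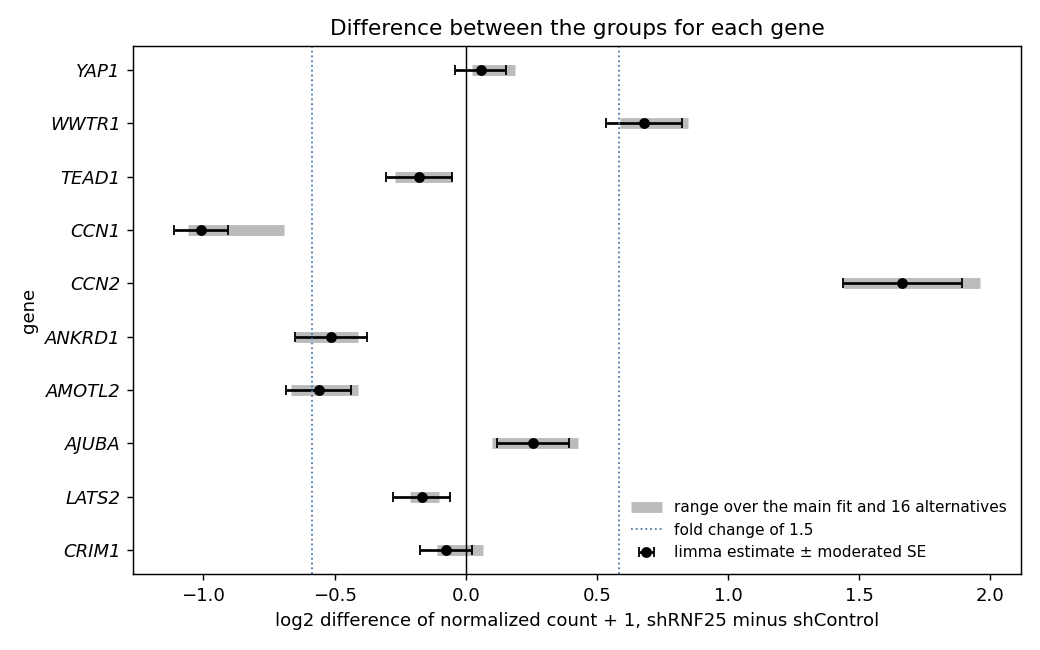
Log2 difference (shRNF25 minus shControl) of each gene with its limma standard error (black), the range over the main fit and 16 alternative settings (grey bars) and a fold change of 1.5 (dotted lines). The grey bars of CCN2 (1.44 to 1.96), WWTR1 (0.59 to 0.85) and CCN1 (-1.06 to -0.69) lie beyond the dotted lines.

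The other genes of the pathway were taken from lists drawn up from general knowledge, with earlier results of these data known. Counts over these lists are therefore given as a description. Of 46 listed regulators of YAP and TAZ, 45 were tested, of which 4 were called higher (8.89%, beside 8.65% of all tested genes) and 2 lower (4.44%, beside 7.10%), with a median log2 difference of -0.14. Among TEAD partners, VGLL1 and VGLL4 encode vestigial-like cofactors that bind TEADs in competition with YAP. VGLL1 rose from 252.8 ± 45.5 to 562.0 ± 27.0 normalized counts (log2 difference 1.16, limma adjusted p = 0.000911). VGLL4, known as an antagonist of YAP, fell from 1121 ± 116 to 698.7 ± 17.3 (log2 difference -0.68, limma adjusted p = 0.00364).

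In the kinase core of 6 genes, SAV1, the scaffold of the MST kinases, fell from 1929 ± 218 to 1188 ± 58.1 normalized counts (log2 difference -0.69, limma adjusted p = 0.00329). None of the 6 was called higher by limma, edgeR or DESeq2, beside 8.65% of all tested genes by limma. At an unadjusted limma p below 0.05, 0 of the 6 were higher, beside 2866 of the 16554 tested genes. Of 33 upstream genes, 3 rose (9.09%, beside 8.65% of all tested genes). AMOT, an angiomotin that binds YAP, went from 10.0 ± 0.943 to 41.5 ± 6.61 normalized counts, on 9 to 53 reads (log2 difference 1.94, limma adjusted p = 0.00100). FAT4, an atypical cadherin, went from 49.7 ± 4.51 to 106.0 ± 10.1 (limma adjusted p = 0.00300) and WTIP, a LIM protein related to AJUBA, from 74.3 ± 12.4 to 140.5 ± 11.03 (limma adjusted p = 0.00653). None of the 33 was called lower by limma, edgeR or DESeq2, beside 7.10% of all tested genes by limma. At an unadjusted limma p below 0.05, 6 of the 33 were lower, beside 2987 of the 16554 tested genes. By limma adjusted p alone 4 of the 33 were higher and 3 lower (10.5% and 10.8% of all genes). Among the lower ones FRMD6 differed by -0.57 (limma adjusted p = 0.00358) and MAP4K2 by -0.54 (limma adjusted p = 0.00659), short of a fold change of 1.5. With a library left out, limma called FRMD6 lower without shControl replicate 2 (log2 difference -0.60, adjusted p = 0.00809) and MAP4K2 without shControl replicate 3 (-0.60, adjusted p = 0.00481). The related angiomotin gene AMOTL1 differed by -0.41 (limma adjusted p = 0.0193), short of a fold change of 1.5.

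Among 24 further target genes of YAP and TEAD, 23 were tested, and 10 were lower (43.5%, beside 7.10% of all tested genes) and 0 higher in limma, edgeR and DESeq2 alike. At an unadjusted limma p below 0.05, 11 were lower and 2 higher, beside 2987 lower and 2866 higher of the 16554 tested genes. The median log2 difference was -0.38. Because these targets were listed with earlier results of these data known, the share of lower genes is a description and not a test. Without shControl replicate 1, 1 target was called higher (RBMS3, 0.60), as was MYOF (0.67) under quantile normalization.

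The 16 genes of a YAP signature gave 6 lower genes of 15 tested (40%, beside 7.10% of all tested genes). NUAK2, a kinase related to AMPK, fell from 750.6 ± 97.7 to 237.9 ± 6.96 normalized counts (log2 difference -1.65, limma adjusted p = 7.32e-05). F3, which encodes tissue factor, fell from 756.4 ± 204 to 247.9 ± 45.1 (-1.58, limma adjusted p = 0.00133), and TGFB2, a TGF-β ligand, from 11006 ± 4077 to 3723 ± 250 (-1.50, limma adjusted p = 0.00171). IGFBP3, a binding protein of insulin-like growth factors, had 5407, 4692 and 12475 in shControl and 2560, 2519 and 2403 in shRNF25 (-1.45, limma adjusted p = 0.00981). Replicate 3 stood far above the other shControl libraries, and the log2 difference without it was -1.01. NT5E and CCDC80 were the other two lower genes, both with log2 differences near that of CCN1 (-1.16 and -1.15).

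Of 8 other reported targets 4 fell (50%, beside 7.10% of all tested genes). THBS1, the matrix protein thrombospondin-1, went from 58759 ± 5774 to 15396 ± 600 normalized counts (log2 difference -1.93, limma adjusted p = 1.73e-05). AREG, a ligand of the EGF receptor, differed by -1.16 (limma adjusted p = 0.000213). EDN1, the precursor of the vasoconstrictor endothelin-1, differed by -0.79 (limma adjusted p = 0.0171). Its call was lost without shControl replicate 3 (-0.57) and without any one of the shRNF25 libraries (limma adjusted p = 0.0741, 0.0723 and 0.0569). As background, some of these genes, F3 and EDN1 among them, are also known to respond to AP-1, NF-κB or TGF-β. Of the other CCN genes only CCN3 passed the filter on low values, with a log2 difference of 0.03 (limma adjusted p = 0.908).

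**Figure D5:**
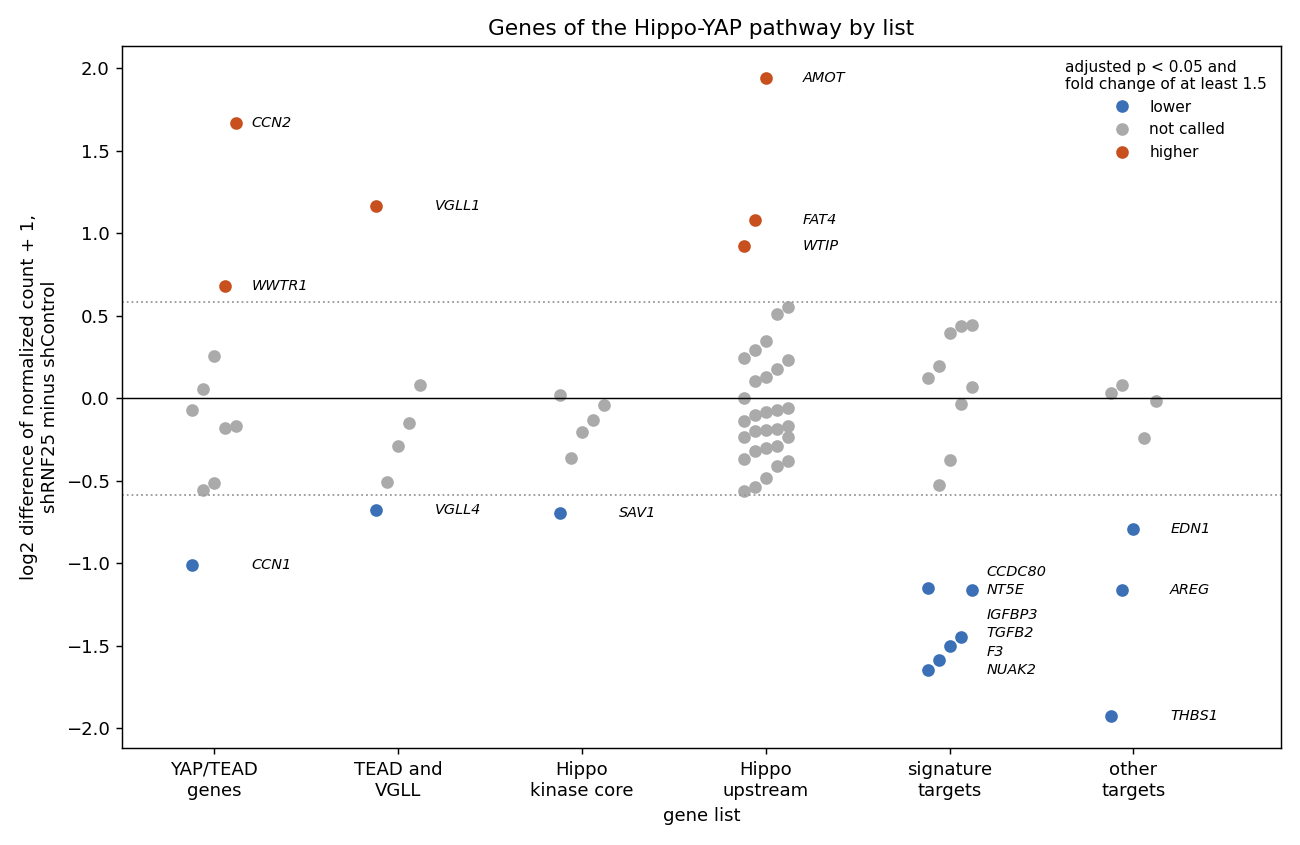
Log2 difference (shRNF25 minus shControl) of the tested genes, with the 10 YAP/TEAD genes at the left and the pathway lists beside them, orange for genes called higher, blue for lower and grey for the rest, and dotted lines at a fold change of 1.5. In the signature and other target lists 9 of the genes drawn are blue and 0 orange.

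CCN2 was also set beside all tested genes by its pattern over the 6 libraries. The 5 genes with the highest Pearson r on the log2 scale were the linker histone gene H1-2 (0.999), the histone gene H2AC13 (0.999), AL354993.2 (0.999), AC015813.1 (0.998) and the cartilage collagen COL2A1 (0.998). COL2A1 had normalized counts of 174.7, 252.4 and 1045 in shControl and 5252, 4830 and 5270 in shRNF25. Like CCN2, COL2A1 was highest in replicate 3 among the shControl libraries, a likeness that comes with its choice by this pattern. These r values are a description over 2 groups of 3 libraries that share the group difference.

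The labelled cell type was checked on markers. KRT8, KRT18 and EPCAM, epithelial genes, were between 4205 and 38009 normalized counts in every library, and PAX8, a kidney lineage factor, between 76.7 and 140.3. CA9, a hypoxia target usual in clear cell tumors, was between 1.85 and 50.7, and the kidney cadherin CDH6 between 0 and 12.95. Also listed as kidney tumor markers, NDUFA4L2 was between 10.5 and 33.5, MME between 11.8 and 46.4 and CDH2 between 1470 and 1968. Immune markers (PTPRC, CD68 and CD3E) summed to 5.72 to 17.3, with CD3E at 0 in 2 shControl libraries. Endothelial markers (PECAM1, VWF and CDH5) summed to 459.7 to 677.8 in shControl and 412.8 to 556.7 in shRNF25, most of it PECAM1. CDH5 went from 124.7 ± 65.7 to 5.89 ± 2.34 (log2 difference -4.12, limma adjusted p = 0.000213). PECAM1 had 400.3 ± 59.7 in shControl and 451.8 ± 84.7 in shRNF25 (log2 difference 0.17, limma adjusted p = 0.505). VWF had 9.29 ± 3.18 and 5.29 ± 1.53. Fibroblast markers (COL1A1, COL1A2, PDGFRB and DCN) summed to 1101 to 1263 and 856.1 to 1000.5, nearly all of it COL1A1. VIM, a filament protein of mesenchymal cells that also marks these tumors, rose from 355.4 ± 133 to 831.9 ± 43.4 (log2 difference 1.31, limma adjusted p = 0.00805). The part of VIM and CDH5 in the differences of the YAP/TEAD genes was not tested.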

How the data were processed

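The 6 libraries were assigned to shControl or shRNF25 by the library names in the labels. The authors deposited 1 table of normalized counts for 30267 genes, a signal in fractional values. The study's methods give ribosomal RNA depletion, a stranded kit and DESeq2, and the submitters' processing notes name fastp, HISAT2, HTSeq and GRCh38, with no versions. Deposited values were whole multiples of a step in each library, and whole reads came back for 100% of them (tolerance 0.01 reads). No correction for gene length is in the values.

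Values were compared as log2(normalized count + 1) with limma 3.58.1 (lmFit, eBayes with trend) in R 4.3.3 over the 16554 genes that reached 10 normalized counts in 3 or more libraries, with Benjamini-Hochberg adjustment over all of them. The script was tested on simulated data. edgeR 4.0.16 and DESeq2 1.42.0 were run on the recovered reads as alternatives, beside other pseudocounts, filters, scalings, a replicate block, library weights and each library left out. Gene positions, exon lengths and overlaps came from GENCODE 29 and promoter windows from RefSeq, neither being the authors' stated annotation. Of the listed symbols, VGLL2, FOXF2 and PAX2 were unmatched and PALS1 was matched as MPP5.

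The members and the gene lists were chosen with earlier results of these data known. Besides the members, RNF25, the TEAD genes and markers, the text names up to 4 genes per direction and list with the largest log2 difference among those called, and the 5 genes most correlated with CCN2. NT5E, CCDC80, AMOTL1, FRMD6, MAP4K2, MYOF, RBMS3 and CCN3 were named after their values were seen. The deposited values alone were analysed, and depth is given as reads on genes. Protein sequences were not used here, and 1 called target is counted but neither named, given values nor drawn, since it is not reported here.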

Additional observations from a re-analysis of the deposited data

How the results depend on the processing

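The 10 log2 differences were recomputed under 16 alternatives. Of 160 values, 155 stayed within 1 SD of the main value, the SD being the spread of libraries within the groups. The other 5 moved (YAP1, CCN1 and CRIM1 under quantile normalization, YAP1 and LATS2 under rescaling on genes with a mean of at least 100), with 0 changes of sign in a called gene. Both changed filters, the replicate block and the library weights by group leave these differences unchanged by design. Leaving 1 library out of a group of 3 cannot move a difference by as much as 1 SD of this kind. Whether values under all of these settings stayed within 1 SD is therefore no check of the differences. Members called higher were 2, with a range of 1 to 2 when a library was left out and 1 at a fold change of at least 2. Members called lower were 1, with a range of 1 to 2 when a library was left out and 3 by adjusted p alone, a setting added after seeing the data. Over all genes, 1432 higher calls became 898 with a value of at least 50, 893 at a fold change of at least 2 and 748 to 1725 when a library was left out (748, 824 and 831 without shRNF25 replicates 1, 2 and 3), and 1175 lower calls became 513 at a fold change of at least 2. Pathway regulators called lower went from 2 to 0 at a fold change of at least 2. Pathway targets called higher went from 0 to 1 under quantile normalization and ranged from 0 to 1 when a library was left out, while those called lower stayed at 10 with edgeR and DESeq2.

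The replicate numbers share nothing in the labels, and deviations of same-numbered libraries correlated at -0.064, -0.087 and 0.047. With the replicate block 1398 genes were higher and 1193 lower, and the counts of members and pathway genes called were as without it. Members had 518 to 27798 reads per library, the fewest being those of CCN2 in shControl replicate 1.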
